A study of Mus musculus with 12 samples.

Results

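The clusters described here are stretches of the mouse genome in which mouse embryonic stem cells without TDG carried 5 or more listed 5-formylcytosine (5fC) bases while cells that keep TDG had none listed there. Knockout sites no more than 1000 bases apart were joined, and a cluster was kept when no control site lay inside it or within 1000 bases of either end. On the 19 autosomes this gave 1767 clusters out of 5314 knockout clusters of 5 or more sites, or 33.3%, and out of 59855 knockout regions of any site number. The clusters were thus chosen by the number of listed knockout sites and by the absence of listed control sites, and neither of these is a finding. The other 3547 clusters, which have at least 1 control site, serve for comparison at equal site number.

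5fC is made when TET enzymes oxidise 5-methylcytosine beyond 5-hydroxymethylcytosine. TDG is the DNA glycosylase that cuts 5fC and 5-carboxylcytosine out of DNA, after which base excision repair restores an unmodified cytosine. A cell without TDG therefore keeps 5fC that would otherwise be removed. In mammals nearly all of this chemistry takes place at CpG dinucleotides, which read the same on both strands and so offer a cytosine on each.

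The knockout cells are Tdg -/- and the control cells Tdg fl/fl, a genotype in which both alleles carry the recombination sites but which the labels otherwise call wild type. Both are labelled as mES lines of strain C57BL/6-ICR and were grown without feeder cells in serum with LIF. For each genotype the labels give input before labelling, input after it, and pull-down output, in 2 replicates each, 12 libraries in all, and do not say how many clones each line stands for. In the assay, azido-indandione reacts with 5fC, the labelled base is read as T, and a biotin handle lets fragments of 100 to 400 bases be pulled down. The values used here are 1 list of single-base positions per genotype on mm9, with 138649 knockout and 32614 control sites on the autosomes. The lists give no level, read number, strand or replicate, so differences between genotypes have no replicate check and no p-value, and a base missing from the control list cannot be told apart from one below the authors' unknown threshold. No mm9 gene annotation or genome sequence was used here, so clusters are given by position, printed as listed, and are tied to no gene. No value of Tdg itself is in the lists, so the genotype of each was not checked.

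How often a knockout region had no control site depended on how many knockout sites it held. Among single knockout sites 75.5% had no control site inside or within 1000 bases, and among regions of 2, 3 and 4 sites the shares were 65.4%, 55.7% and 48.1%. Of 2492 regions of 5 sites, 976 had none, or 39.2% (95% interval 37.2 to 41.1). At 6 sites it was 439 of 1337, or 32.8%, and at 7 sites 192 of 640, or 30.0%. The share was 24.8% at 8 sites (82 of 330), 19.6% at 9 (40 of 204), 17.2% at 10 (22 of 128) and 11.0% at 11 (8 of 73). Of the 110 regions with 12 or more sites, 8 had no control site, or 7.27% (3.19 to 13.8). Each share in this series was below the one before it, and the intervals of neighbouring site numbers overlapped from 6 sites onward. Because the rule itself uses this contrast, these values describe the selection and nothing is read from them. All intervals here are exact Clopper-Pearson intervals and cover counting error only.

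**Figure D1:**
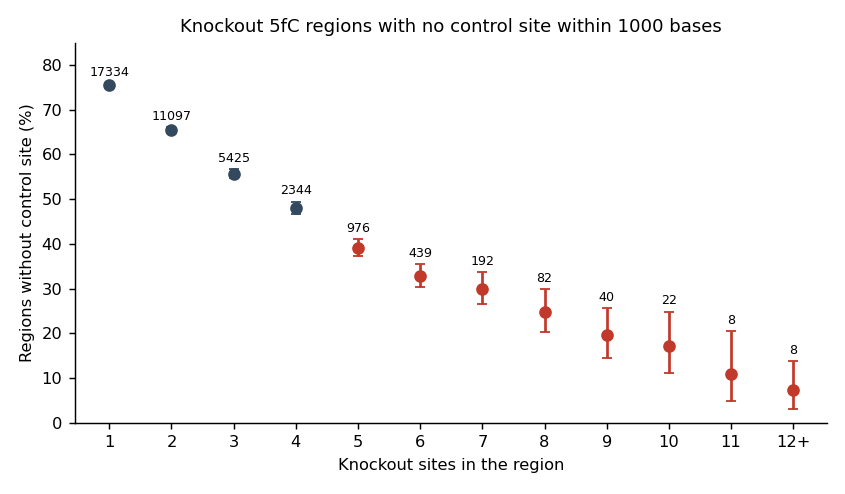
Percentage of knockout regions with no control site inside or within 1000 bases (y axis) by the number of knockout sites in the region (x axis), with 95% Clopper-Pearson intervals. Numbers above the points count the regions without control site, red points (5 or more sites) are the clusters described, and the share goes from 75.5% at 1 site to 7.27% at 12 or more.

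Clusters of either kind were mostly small, and those without a control site somewhat more so. Of the 1767 clusters, 1415 (80.1%) had 5 or 6 knockout sites, against 68.1% of the clusters with a control site. The median was 5 sites and the highest number 16, against a median of 6 and a highest number of 33 in clusters with a control site. These differences restate the shares by site number above, so they describe the selection and nothing is read from them. Together the clusters without control sites held 10285 knockout sites, 7.42% of the autosomal knockout list, within 1601 kb of sequence from first to last sites. The clusters with a control site held 22751 knockout sites within 3781 kb. The comparisons of length, adjacent sites, gaps and flanks below give the clusters with a control site the same mix of site numbers by weighting. Site number alone changes length and neighbourhood. Values split by site number, shares by autosome and the kind of the nearest cluster are not weighted.

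The cluster with the most sites lay on chr17:83892828-83896057, with 16 knockout sites in 3230 bases. Its sites fell into 7 tight groups, meaning consecutive sites no more than 100 bases apart or a lone site, and the largest of these had 5 sites in 193 bases. The nearest control site was 5542 bases away, and in the flanks from 1 to 100 kb there were 31 knockout and 4 control sites. The second, on chr9:43895953-43898223, had 14 sites in 2271 bases, 6 of them on adjacent bases, and its nearest control site was 16909 bases away. The third, on chr4:140218001-140220780, had 13 sites in 2780 bases and a control site only 1881 bases away. These 3 clusters were thus alike in site number and length and differed in how close control sites came.

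The remaining 7 of the 10 clusters named for most sites had 11 or 12. The last 2 places were tied among 8 clusters of 11 sites, and the shortest were taken. A cluster of 12 sites on chr15:79574699-79576693 stood alone: its nearest other knockout site was 24805 bases away and its nearest control site 46580 bases away. Another with 12 sites on the same chromosome, from 82036093 to 82038608, had 101 knockout and 22 control sites in its flanks from 1 to 100 kb. That cluster opened with a tight group of 6 sites in 81 bases and had 6 of its 12 sites on adjacent bases. The clusters of 12 sites on chr14:55060363-55062904, chr4:136319502-136322503 and chr12:87504172-87507188 had control sites 17162, 1752 and 9340 bases away. On chr4:131457041-131457352, 11 sites lay in 312 bases with no gap over 79 bases, a length that a single pulled-down fragment could span. The last, on chr9:49193030-49194440, had 11 sites in 1411 bases and only 4 other knockout sites from 1 to 100 kb away. Among these 10, the surroundings ranged from 4 to 101 other knockout sites, the lowest number belonging to a cluster taken by the tie.

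**Figure D2:**
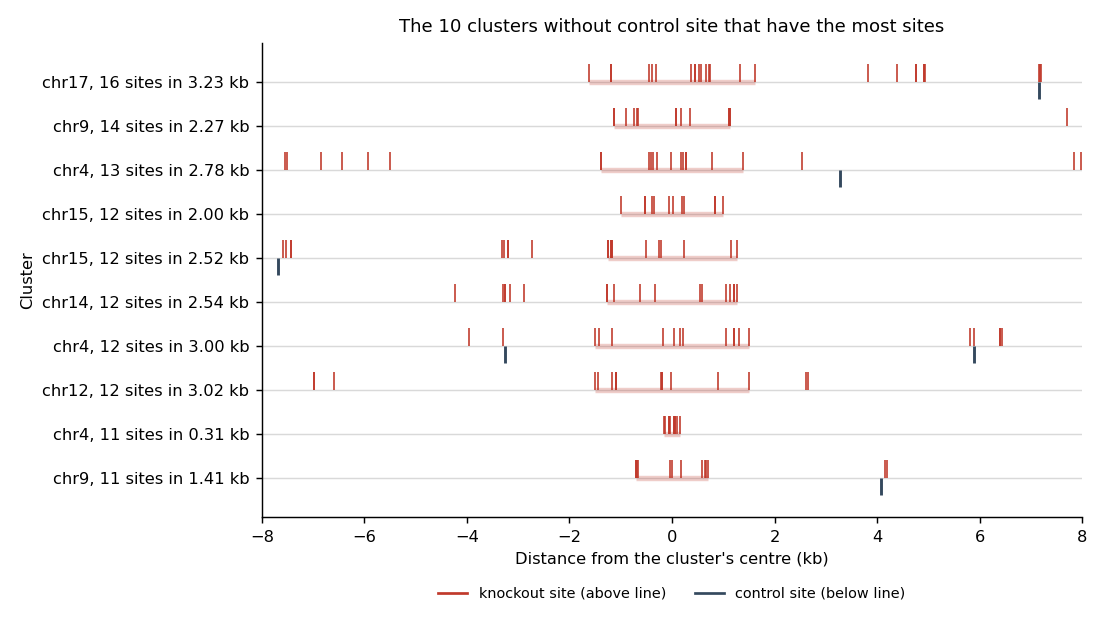
Positions of listed sites within 8 kb of the centre (x axis, kb) of the 10 clusters without control site that have the most sites (one line each, with chromosome, site number and length). Red marks above the line are knockout sites, dark marks below it are control sites, and the pale bar spans the cluster; 9 of the 10 are 1.41 to 3.23 kb long and made of several tight groups, while the cluster on chromosome 4 with 11 sites is 0.31 kb long.

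The clusters with a control site that held the most knockout sites were larger. Regions of many sites seldom lacked a control site, as given above, so this too describes the selection. They had 33 knockout and 13 control sites on chr12:20232853-20238145, with 11 bases listed in both, and 27 knockout and 12 control sites on chr6:125304946-125311181. The next 3 had 21 knockout sites on chr5:122959389-122962417, 20 on chr11:99004476-99006421 and 20 on chr1:138554844-138558204, with 1, 8 and 2 control sites inside. Of all 3547 clusters with a control site, 3260 had it inside and 287 only in the flank. In 1821 there was exactly 1 control site, and 2573 had at least 1 base listed in both genotypes.

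The next comparison asked whether clusters without a control site were built differently from those with one. Their median length was 826 bases, from 14 to 3230, with quartiles of 423 and 1269 bases. At the same mix of site numbers, clusters with a control site had a median of 840 bases. Over the 19 autosomes the difference averaged -19.6 ± 95.1 bases (SD), and it was negative on 13 and positive on 6. At 5 sites the medians were 666 and 678 bases without and with a control site, at 6 sites 868 and 903, and at 7 sites 1168 and 1166.5. At 8 sites they were 1282 and 1317, at 9 sites 1528.5 and 1407, and at 10 or more 1769.5 and 2229. The last class is not matched, since its clusters with a control site reach higher site numbers. At equal site numbers, the median was 787 bases in the 2573 clusters with a base listed in both genotypes. In the 974 clusters with control sites but no such base it was 980, so the 826 bases without a control site lay between. The differences in length were not tested. A longer cluster also offers a control site more bases to fall on, so length and the rule are linked by construction.

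A short length matters for this assay because a single fragment may carry several sites. Among the clusters without a control site, 414 (23.4%, 21.5 to 25.5) spanned no more than 400 bases, the longest fragment the labels name. At equal site number the share with a control site was 21.9%, and the difference averaged 1.16 ± 5.48 percentage points over autosomes (SD, n = 19). At the other end, 93 clusters (5.26%) were longer than 2000 bases. Most clusters were therefore longer than a fragment and needed 2 or more fragments to be listed in full.

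A CpG listed on both strands would give a pair of sites on adjacent bases, as its cytosines lie 1 base apart. Of the 10285 sites in clusters without a control site, 28.0% had another knockout site on the next base. The share in clusters with a control site was 28.9% at equal site numbers. The difference averaged -1.25 ± 3.16 percentage points over autosomes (SD, n = 19) and was negative on 13 of 19. At 5 sites the shares were 28.0% (26.7 to 29.3) without and 28.2% (27.2 to 29.2) with a control site. At 6 sites they were 26.3% (24.7 to 28.1) and 30.1% (28.8 to 31.3), the only one of 6 site-number classes in which the intervals did not overlap. At 7 sites they were 30.2% and 29.9%, at 8 and 9 sites the share was the higher one without a control site, and at 10 or more it was 27.3% without and 27.7% with one. Sites within a cluster are not independent, which makes these intervals too narrow. At equal site numbers, the share was 30.5% in clusters with a base listed in both genotypes. In clusters with control sites but no such base it was 24.7%. The direction of the difference thus depended on which clusters with a control site were compared.

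Counted by cluster, 670 of the 1767 (37.9%, 35.6 to 40.2) had no adjacent pair, 781 (44.2%) had 1 pair, 289 (16.4%) had 2 and 27 (1.53%) had 3 or more. At equal site number, 36.0% of clusters with a control site had no pair. With each pair counted as 1 position, 1126 clusters (63.7%) still held 5 or more separate positions, 518 held 4 and 123 held 3. So for 641 clusters (36.3%) the number 5 was reached only because adjacent bases were counted separately. The same held for 1096 of the 3547 clusters with a control site (30.9%), not weighted and so with more sites per cluster. The most strongly paired cluster of 8 or more sites, on chr7:104488906-104489750, was made of 4 pairs and nothing else. On chr1:120652843-120653223, 8 of 9 sites were in pairs. Of 8 clusters of 8 sites tied with 6 in pairs, the first 3 by position lay on chr2:83533863-83535139 and from 104397316 to 104398141, and on chr4:101118474-101119776. Strand is not given, so pairs are read from position alone.

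**Figure D3:**
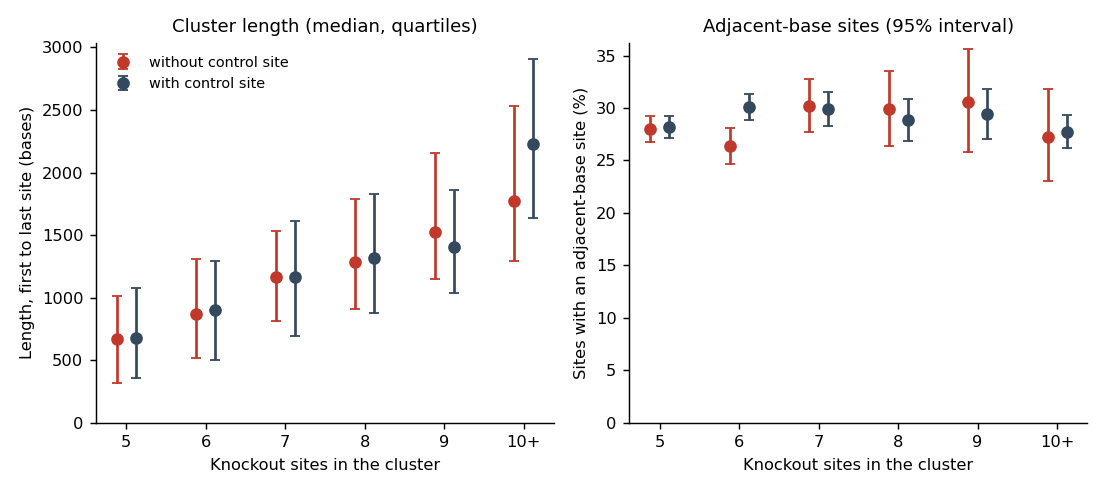
Left, cluster length from first to last site in bases (median with quartiles); right, percentage of sites with another knockout site on the adjacent base (95% interval), both by number of knockout sites. Red is without and dark is with a control site; at 5 sites the median lengths are 666 and 678 bases and the shares 28.0% and 28.2%, and the "10+" class with a control site holds larger clusters, up to 33 sites.

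Within clusters, short and wide gaps between neighbouring sites were mixed. Of the 8518 gaps between neighbouring sites in clusters without a control site, 16.9% were 1 base, 5.39% were 2 to 10 bases, 31.6% were 11 to 100, 33.3% were 101 to 500 and 12.9% were 501 to 1000. In clusters with a control site, weighted, the shares in the same order were 17.5%, 5.44%, 30.8%, 32.6% and 13.7%. No class differed by more than 1 percentage point. The median number of tight groups was 3 in both. In 600 clusters (34.0%, 31.7 to 36.2) the largest tight group had only 2 sites, against 34.5% with a control site. In 61 (3.45%) no sites lay within 100 bases of each other, against 3.20%. In 522 clusters (29.5%, 27.4 to 31.7) the largest tight group had 4 or more sites, against 27.7% with a control site, and in 106 (6.00%, 4.94 to 7.21) 1 tight group held all sites, against 6.69%. The densest clusters of 7 or more sites were on chr1:159375251-159375331, with 7 sites in 81 bases, and on chr3:126054296-126054395, with 7 in 100 bases. Then came chr19:14705262-14705450, with 7 sites in 189 bases, the cluster of 11 sites on chromosome 4 described above, and chr18:75513544-75513791, with 8 in 248 bases. In the first 2 of these, 6 of the 7 sites were in adjacent pairs.

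Distances of all pairs of sites in a cluster were also compared, since an earlier look at these lists had found more pairs at 170 to 200 bases. Clusters without a control site held 1013 pairs at 170 to 200 bases, 1165 at 78 to 108 and 615 at 263 to 293. The middle count was 1.20 times the geometric mean of the outer ones, and the same ratio in clusters with a control site was 1.24 weighted and 1.21 unweighted. At 355 to 385 bases, set against 263 to 293 and 448 to 478, the ratios were 1.06 without and 1.09 with a control site, weighted. In both groups the count at 170 to 200 bases was thus above the geometric mean of the outer ranges, by a similar ratio. The ranges were fixed, so the ratios do not show where in or near them pairs were most frequent. The range had been seen in these lists before, and pairs of 1 cluster share sites, so these ratios are descriptions.

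**Figure D4:**
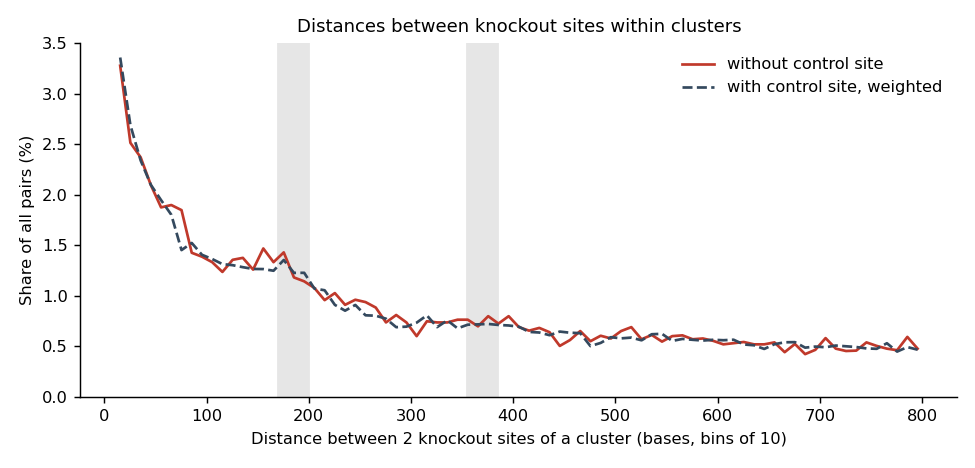
Share of all pairs of knockout sites within a cluster (y axis, %) by the distance between them (x axis, bases, bins of 10, from 11 bases on). The red line is clusters without and the dashed dark line clusters with a control site weighted to equal site numbers; grey bands mark 170 to 200 and 355 to 385 bases, where the counts were 1.20 and 1.06 times their neighbours without a control site.

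The surroundings of the clusters were compared next, from just over 1 kb beyond their ends, where the rule no longer bars control sites. At 1 to 2 kb there were 69.9 control sites per Mb around clusters without and 69.4 around clusters with a control site. The average over all autosomes was 13.6 control sites per Mb. Control sites were therefore as dense just beyond the barred stretch as at the same distance from clusters that have one, and well above the genome's average. The counts behind the first value are 247 control and 1070 knockout sites.

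Farther out the control density around clusters without a control site was slightly lower. It was 63.6 against 67.4 per Mb at 2 to 5 kb, 58.5 against 61.6 at 5 to 10 kb, 50.3 against 54.1 at 10 to 20 kb, 47.8 against 49.2 at 20 to 50 kb and 39.9 against 42.6 at 50 to 100 kb. Over 1 to 10 kb the difference averaged -3.95 ± 9.60 sites per Mb (SD, n = 19 autosomes) and was negative on 16 of 19. Over 10 to 100 kb it averaged -2.53 ± 4.72 and was negative on 14 of 19. Neither difference was tested. Windows of neighbouring clusters overlap, so the same site can count more than once.

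Knockout sites around the clusters were lower in 5 of 6 distance ranges and higher in 1. At 1 to 2 kb they numbered 302.8 per Mb without and 310.0 with a control site, at 2 to 5 kb 287.5 and 284.0, and at 50 to 100 kb 171.1 and 179.0, against 57.5 over all autosomes. Over 10 to 100 kb the densities were 187.3 and 194.2 per Mb, a difference that averaged -9.52 ± 18.5 over autosomes (SD, n = 19) and was negative on 14. The number of control sites per 100 knockout sites in that window was 23.3 around clusters without and 23.7 around clusters with a control site, and it was 23.5 over all autosomes. Relative to knockout sites, control sites were thus about as frequent in these surroundings as on the autosomes as a whole.

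**Figure D5:**
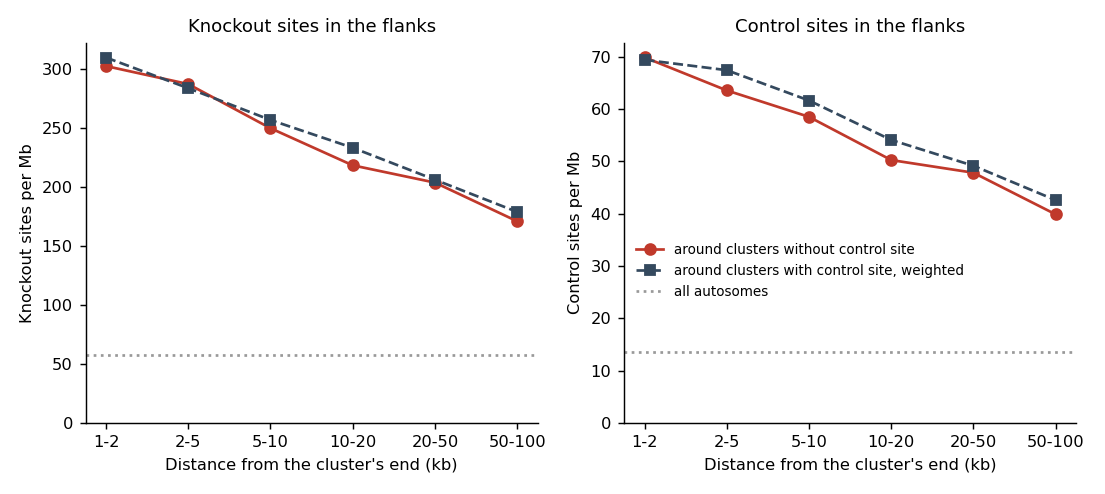
Knockout (left) and control (right) sites per Mb by distance from the cluster's end (x axis, kb). Red circles are clusters without and dark squares clusters with a control site weighted to equal site numbers, and the dotted line is the autosomal average; control density at 1 to 2 kb is 69.9 without and 69.4 with a control site, against 13.6 over all autosomes.

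Splitting all clusters by how many control sites lay 10 to 100 kb away gave a similarly small gradient. Among clusters of 5 to 6 sites, 39.6% (36.9 to 42.3) had no control site of their own where this number was 0 to 4, and 34.7% (31.4 to 38.0) where it was 13 to 36. Among clusters of 7 or more sites the shares were 26.8% (22.6 to 31.4) and 21.1% (17.1 to 25.4). In both size classes the share was lower where control sites were many, with intervals that overlapped, and clusters without a control site were found in control-poor and control-rich surroundings alike.

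The nearest control site was usually not far. Its median distance was 9367 bases, with quartiles of 3944.5 and 24269. It lay within 2000 bases of 181 clusters (10.2%), within 10000 bases of 915 (51.8%) and beyond 100000 bases of 79 (4.47%). The 3 clusters just inside the limit had a control site 1007, 1017 and 1023 bases away, on chr4:134305334-134307169, chr11:98888534-98889291 and chr13:58408614-58409999. The 3 just outside it had one 999, 980 and 962 bases away, on chr6:50270042-50270194, chr5:100760544-100762825 and chr15:76018176-76020455. The first 3 had 6, 5 and 5 sites in 1836, 758 and 1386 bases, and the others 5 sites each in 153, 2282 and 2280 bases.

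The 5 clusters farthest from control sites had 5 to 7 sites in 238 to 845 bases. One on chr16:50775040-50775353 had 5 sites in 314 bases, and the nearest control site was 651 kb away. The others were 7 sites on chr15:30602489-30603333 at 553 kb, 6 sites on chr3:147460236-147460588 at 539 kb, 5 sites on chr6:15693221-15693458 at 524 kb, and 6 sites on chr9:6435150-6435465 at 398 kb. Knockout sites were few there as well: the 5 clusters had 0 to 10 further knockout sites from 1 to 100 kb away. Of all 1767 clusters, 16 (0.905%, 0.518 to 1.47) had no other knockout site in that range, against 0.579% of clusters with a control site, weighted. These 16 had 5 or 6 sites and a median length of 400 bases.

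Clusters without a control site occurred on every autosome. They made up 33.6% ± 3.01 of all clusters (SD, n = 19 autosomes), from 28.4% (23.1 to 34.1) on chromosome 8 to 39.3% (31.7 to 47.2) on chromosome 18. Chromosome 6 had 142 of 365, or 38.9% (33.9 to 44.1), and the largest part of its knockout sites in such clusters, 10.3%, against 7.41% ± 1.08 on average. Chromosome 6 also had the fewest control sites per 100 knockout sites, 21.8, and chromosome 8 the most, 25.2. Over the 19 autosomes the share and this number were weakly related (Pearson -0.334, Spearman -0.186), and they share the control list by construction. Per Mb, the clusters numbered 0.751 ± 0.224 (SD, n = 19), highest on chromosome 11 with 1.20 and lowest on chromosome 14 with 0.459. Across autosomes this density followed that of all knockout sites, with Pearson and Spearman values of 0.898 and 0.889 over points that share the knockout list. The share without a control site did not follow it (-0.0886 and -0.0439). Along the chromosomes, from the low-coordinate end in 5 equal parts, the shares were 36.3%, 33.8%, 34.6%, 31.7% and 32.1%, with overlapping intervals.

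The kind of the nearest cluster, compared without weighting, was similar for both. From a cluster without a control site, the nearest other cluster of 5 or more sites was also without a control site in 608 of 1767 cases (34.4%, 32.2 to 36.7). From a cluster with a control site it was without one in 1178 of 3547 cases (33.2%, 31.7 to 34.8). The median distance to the nearest other cluster of the same kind was 148 kb, and 714 (40.4%) had another within 100 kb. The longest series of such clusters, each within 100 kb of the next, had 10 clusters with 72 knockout sites on chr17:28100292-28436736. That stretch of 336 kb held 196 knockout and 48 control sites in all, or 24.5 control per 100 knockout sites, so the control sites there lay between the clusters. The next, both on chromosome 6, were 8 clusters from 31075415 to 31336385, with 104 knockout and 10 control sites (9.62 per 100), and 7 clusters from 4683114 to 4983891, with 119 and 7 (5.88 per 100). These stretches were picked after their values were seen and for holding clusters without a control site, which lowers their control numbers by itself.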

How the data were processed

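Each deposited file is a list of 5fC positions for 1 genotype, with chromosome, start and end. The authors deposited these base positions with no other value, and start equalled end in each row. The genotype of a list was read from its name, which matches a line in the design text. Of tools and builds, the submitters' processing notes list HOMER, Bismark 0.8.3 and mm9, without roles. Not given in the sources used here: how a site came to be listed, whether replicates were pooled, and whether positions count from 0 or 1. Read depth is unknown.

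Regions were built in Python 3.11.15 with numpy 2.4.6, pandas 2.3.3 and scipy 1.17.1, and drawn with matplotlib 3.10.9. The script recovered 1258 of 1258 simulated clusters with the right site number and group. Clusters with a control site were weighted to the site numbers of those without. A counterpart of the same site number existed for 1767 of the 1767 over all autosomes and for 1766 within the same autosome, and the rest were left out of that comparison. With 1 list per genotype, spreads are over 19 autosomes and no test was made.

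The rule, the comparisons and the alternatives were chosen with earlier results of these lists known. Regions named are those with the most sites (10), the most sites per kb, the largest adjacent share or the greatest distance from control sites (5 each), those nearest the limit, and the 5 largest with a control site. Tight groups, the 400-base length and series of clusters were chosen after values were seen. Gene annotation was planned only for an mm9 reference and was not run.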

Additional observations from a re-analysis of the deposited data

Results flagged for a closer look

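The rule kept the autosomes, and 2 clusters of the same kind lay outside them. On X, a cluster from 166417567 to 166420301 had 36 knockout sites in 2735 bases, more than any autosomal cluster with or without a control site, and no control site within 7319 bases. Of its sites, 20 were on adjacent bases. A further X cluster, from 166430229 to 166432157, had 8 knockout sites and no control site within 2609 bases. Between them, from 166421346 to 166428173, lay a cluster of 26 knockout sites with 1 control site inside. It began just beyond the joining distance of 1000 bases from the end of the cluster of 36 sites. Joining at 2000 bases would merge these 2, and the merged cluster would hold that control site. For the cluster of 36 sites, the lack of a control site thus depends on the joining distance. The X clusters named here all lay between 166417567 and 166432157. The 2 without a control site were noted as signal in data outside the comparisons, and the control list had 0 sites in both.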

How the results depend on the processing

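The share of clusters without a control site (33.3%) was 33.7% when sites were joined within 500 bases and moved beyond its interval otherwise. It was 29.8% with joining at 2000 bases, 38.7% with control sites barred only inside, 22.8% with a limit of 5000 bases, 47.8% from 3 sites, 18.9% from 8 sites and 31.5% with adjacent sites counted as 1. The difference in median length (-14 bases, without minus with a control site) was -139 bases with joining at 2000 bases and -116 bases without weights. With a limit of 5000 bases, the differences at 10 to 100 kb were -26.0 knockout and -7.16 control sites per Mb, in place of -6.89 and -2.38. The difference in adjacent-base share (-0.89 percentage points) reversed to 0.81 from 8 sites, and that in knockout density at 1 to 10 kb (-3.52 per Mb) reversed to 4.16 with control sites barred only inside. At 1 to 10 kb the limit of 5000 bases gave -105.5 knockout and -47.7 control sites per Mb, and it bars control sites from part of that window. Knockout sites were not barred, but the lists of the genotypes share bases. The knockout value may therefore not be independent of the limit, which was not tested. By construction, a wider limit lowers the share and a narrower one raises it. The shares from 3 and from 8 sites pool the shares by site number given above. The value without weights is the same comparison at unequal mixes of site numbers. The cause of the other changes was not tested. The other 27 alternatives of these 5 results kept their direction and moved by no more than the SD over autosomes or, for the share, stayed in its interval. That SD is larger than each difference, so staying within it says little. The length difference still reached -54 bases with the limit of 5000 and -59 from 8 sites. The adjacent-base difference came to -0.073 points with joining at 500 bases, and the far knockout difference to -0.26 per Mb from 8 sites. No paired analysis was possible because no list names a replicate, and leaving out replicates was not possible either. Depth limits every count by an unknown amount.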
